A study of Mus musculus with 4 samples.

Results

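Among the KMT9alpha ChIP-seq peaks of mouse colorectal tumour organoids, 493 combined a high score with a position away from the starts of protein-coding transcripts. They were the peaks on chromosomes 1 to 19 whose deposited score was 1500 or more and that overlapped no window of 1 kb either side of the start of a protein-coding transcript in GENCODE vM21. They were 493 of 25700 KMT9alpha peaks on these chromosomes, and 493 of the 7263 with that score. Most of them lay on CpG-rich sequence: 426 of 493 (86.4%, exact 95% interval 83.1 to 89.3%) held a stretch with the base composition of a CpG island. Over all KMT9alpha peaks this share was 58.1%. Of the 493, 227 (46.0%) were within 1 kb of the start of an annotated non-coding transcript, against 74.8% of strong peaks at coding starts and 39.1% of all KMT9alpha peaks. A further 140 were CpG islands with no GENCODE start and no RefSeq mRNA or lncRNA start within 1 kb. They also held no copy of 4.5S RNA and overlapped no RefSeq tRNA gene, rRNA gene or pseudogene. An array of 4.5S RNA genes, a sequence related to 18S ribosomal RNA, a group of 5S ribosomal RNA genes and a tRNA gene cluster were among the members, and each held KMT9beta peaks with scores above 1000. In what follows, a strong peak is one with a score of 1500 or more.

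KMT9 is a methyltransferase made of KMT9alpha, the catalytic subunit encoded by N6amt1, and its partner KMT9beta, encoded by Trmt112. It is known to place 1 methyl group on lysine 12 of histone H4 (H4K12me1). CpG islands are stretches rich in the CpG dinucleotide that usually lack DNA methylation. They mark most promoters of coding genes, and many promoters of long non-coding RNAs (lncRNAs) and of host transcripts of small RNAs. RNA polymerase III transcribes other kinds of genes, among them the tRNA and 5S rRNA genes and the rodent 4.5S RNA genes, which are kept in tandem copies or in clusters.

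The study profiled organoids from a tumour raised in mice with azoxymethane (AOM) and dextran sulfate sodium (DSS), 1 clone (clone 3) at passage 14, with 1 library each against KMT9alpha, KMT9beta and H4K12me1 and 1 input library that is not analysed here. All libraries share this source, the genotype is given as not applicable, and the treatment text names 1 µM tamoxifen and vehicle without tying either to a library. No treatment or genotype could therefore be compared, and peak lists hold no expression values with which to check the tissue against its markers. The lists on chromosomes 1 to 19 hold 25700 KMT9alpha, 89936 KMT9beta and 60058 H4K12me1 peaks, the depth of the libraries is unknown, and with 1 library per antibody no value has a replicate and no difference was tested.

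The loci below are shown because the results turn on them. Coordinates are on GRCm38.p6, the assembly of mm10, and the sequences come from RefSeq's copy of that assembly. The first lines give genes of repeated RNA families on their own strand. In the tRNA genes, the capitals mark the match to the B box, the internal promoter element of tRNA genes.
4.5S RNA gene Rn4.5s, chr6:47654921-47655094, minus strand: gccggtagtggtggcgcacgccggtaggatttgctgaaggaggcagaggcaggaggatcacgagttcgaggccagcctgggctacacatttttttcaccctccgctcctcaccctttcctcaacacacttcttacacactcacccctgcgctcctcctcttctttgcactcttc
tRNA-Gly gene n-TGtcc4, chr1:171079948-171080019, minus strand: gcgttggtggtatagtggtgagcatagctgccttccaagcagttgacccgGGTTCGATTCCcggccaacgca
tRNA-Asp gene n-TDgtc6, chr1:171080607-171080678, minus strand: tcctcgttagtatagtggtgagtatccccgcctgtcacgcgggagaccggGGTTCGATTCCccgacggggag
tRNA-Leu gene n-TLcag8, chr1:171081233-171081315, plus strand: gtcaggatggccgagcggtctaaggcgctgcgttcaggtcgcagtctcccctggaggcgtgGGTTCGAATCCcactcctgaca
tRNA-Gly gene n-TGgcc14, chr1:171081876-171081946, plus strand: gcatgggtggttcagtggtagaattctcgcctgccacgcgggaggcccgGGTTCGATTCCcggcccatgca

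The next lines give the 150 bp around the midpoint of 7 members, on the plus strand, with every CpG in capitals. Among these 7 windows the number of CpGs runs between 4 at Mir670hg and 25 at Mir17hg, and some other members have fewer than 4, such as Snhg15 with 2. A start here is that of any annotated transcript of the gene within 1 kb of the member. The printed window around the midpoint need not hold it. Mir17hg begins at chr14:115042879, downstream of its window, and Malat1, on the minus strand, at chr19:5802672, also downstream of its window. The start at Mir670hg lies inside the gene.
Dancr start, chr5:74093153-74093302: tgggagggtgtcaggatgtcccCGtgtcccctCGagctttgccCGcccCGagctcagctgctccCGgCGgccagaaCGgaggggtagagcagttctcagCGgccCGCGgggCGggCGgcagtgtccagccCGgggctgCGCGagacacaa
Malat1 start, chr19:5803015-5803164: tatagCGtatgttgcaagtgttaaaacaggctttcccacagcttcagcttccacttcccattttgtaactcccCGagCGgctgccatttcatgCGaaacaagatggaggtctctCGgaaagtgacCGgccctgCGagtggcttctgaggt
Norad start, chr2:156392526-156392675: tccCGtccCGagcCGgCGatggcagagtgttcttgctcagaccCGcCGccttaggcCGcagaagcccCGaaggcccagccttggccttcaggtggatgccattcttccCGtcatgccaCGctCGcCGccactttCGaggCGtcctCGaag
Mir17hg start, chr14:115041479-115041628: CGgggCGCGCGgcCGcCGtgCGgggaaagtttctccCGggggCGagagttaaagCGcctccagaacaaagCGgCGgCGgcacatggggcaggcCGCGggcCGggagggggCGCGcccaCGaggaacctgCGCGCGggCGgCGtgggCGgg
Mir670hg start, chr2:94178486-94178635: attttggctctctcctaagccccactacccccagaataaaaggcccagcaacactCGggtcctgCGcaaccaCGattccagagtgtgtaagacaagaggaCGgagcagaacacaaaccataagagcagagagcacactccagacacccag
CpG island without annotated start, nearest coding gene Nkain1, chr4:130520081-130520230: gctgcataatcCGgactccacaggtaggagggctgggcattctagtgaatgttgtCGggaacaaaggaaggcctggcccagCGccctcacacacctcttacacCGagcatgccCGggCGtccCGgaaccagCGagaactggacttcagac
Repeated CpG-rich sequence of unsettled identity in an intron of Filip1l and Cmss1, chr16:57391350-57391499: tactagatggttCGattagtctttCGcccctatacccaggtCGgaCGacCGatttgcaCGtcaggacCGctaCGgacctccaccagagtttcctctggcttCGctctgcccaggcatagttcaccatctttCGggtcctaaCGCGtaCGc

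Mature miRNAs follow, for the members at miRNA genes and for the host genes among the members, with the seed (bases 2 to 8) in capitals. Let-7i and let-7c share the seed GAGGUAG, miR-17 and miR-20a share AAAGUGC, miR-19a and miR-19b share GUGCAAA, and miR-132 and miR-212 share AACAGUC.
miR-192-5p, chr19:6264857-6264877, plus strand: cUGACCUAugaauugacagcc
miR-194-5p, chr19:6264658-6264679, plus strand: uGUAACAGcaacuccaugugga
miR-148a-3p, chr6:51269829-51269850, minus strand: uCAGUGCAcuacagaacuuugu
miR-203-3p, chr12:112130927-112130948, plus strand: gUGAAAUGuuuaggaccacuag
miR-193a-3p, chr11:79712009-79712030, plus strand: aACUGGCCuacaaagucccagu
let-7i-5p, chr10:122985698-122985719, minus strand: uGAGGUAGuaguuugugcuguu
let-7c-5p, in Mir99ahg on chromosome 16: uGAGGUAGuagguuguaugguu
miR-17-5p, in Mir17hg on chromosome 14: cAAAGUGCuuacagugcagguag
miR-20a-5p, in Mir17hg on chromosome 14: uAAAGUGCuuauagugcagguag
miR-19a-3p, in Mir17hg on chromosome 14: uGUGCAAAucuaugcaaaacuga
miR-19b-3p, in Mir17hg on chromosome 14: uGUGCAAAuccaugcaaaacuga
miR-132-3p, chr11:75173723-75173744, plus strand: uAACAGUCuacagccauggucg
miR-212-3p, chr11:75173443-75173464, plus strand: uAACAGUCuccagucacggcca
miR-155-5p, in Mir155hg on chromosome 16: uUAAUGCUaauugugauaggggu
miR-22-3p, in Mir22hg on chromosome 11: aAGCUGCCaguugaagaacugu

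The members were chosen by their KMT9alpha score, which is described here and not tested. Member scores ran between 1502.34 and 3188.31 with a median of 2918.5, and 232 members (47.1%) had 3100 or more, a value at which scores of the KMT9alpha list pile up. The 5 lowest members were an exon of Maff (1502.34), an intron of Foxk1 (1507.74), the lncRNA start C030014I23Rik (1510.12), an intergenic peak near Ctdsp1 (1512.4) and the antisense lncRNA start Gm26796 (1512.51). The 5 highest peaks left out by the score lay at Actn4 (1493.41), Gtf3a (1491.64), Susd1 (1484.33), Bmp2 (1476.71) and Stac (1476.06), each named by its nearest coding start. The highest score among members, 3188.31, belonged to a CpG island 53358 bp from the start of Nkain1 (chr4:130519497-130520815). It was followed by a non-coding transcript start of Stn1 (3188.24), whose product works at telomeres as part of the CST complex. Member width ran between 586 and 8631 bp with a median of 1621 bp, against a median of 1561 bp for the 6770 strong peaks at coding starts and 648 bp for the 13616 weaker peaks away from coding starts.

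Each member was first assigned to an annotation class, taking the first that applied in a set order. The largest class was intergenic without any start (171 members, 34.7%), followed by starts of lncRNA genes (122, 24.7%), introns (71, 14.4%) and starts of non-coding transcripts of coding genes (51, 10.3%). Starts of pseudogenes accounted for 27 members (5.48%), exons for 24 (4.87%), starts of small RNA genes for 16 (3.25%) and starts of genes of the class TEC, for which transcription evidence is still to be experimentally checked, for 11 (2.23%). Without the order, which puts non-coding transcripts of coding genes first, an lncRNA start lay within 1 kb of 26.6% of members (22.7 to 30.7%), 14.1% (13.3 to 14.99%) of the strong peaks at coding starts and 3.96% (3.64 to 4.30%) of the weaker peaks away from coding starts. Over all KMT9alpha peaks this share was 8.12%. With the order, the lncRNA class held 24.7%, 4.49% and 3.77% of these sets, and 68.7% of the strong peaks at coding starts had gone to the earlier class. The class for introns went the other way relative to the weaker peaks, with 14.4% of members (11.4 to 17.8%) against 41.6% (40.7 to 42.4%), and 27.3% over all KMT9alpha peaks. These intervals cover counting of peaks in 1 library only, and neighbouring peaks are not independent.

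**Figure D1:**
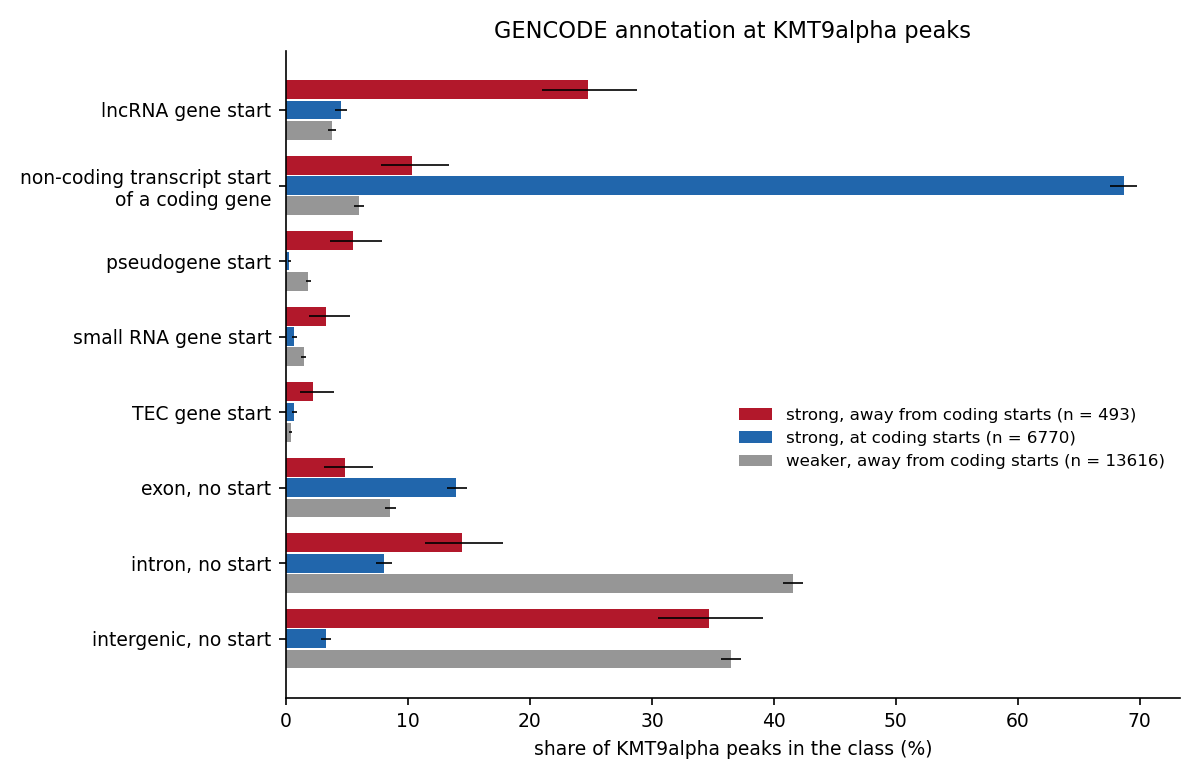
Share of KMT9alpha peaks in each GENCODE class (horizontal axis, %), for the 493 strong peaks away from coding starts (red), the 6770 strong peaks at coding starts (blue) and the 13616 weaker peaks away from coding starts (grey); error bars are exact 95% intervals. A start lies within 1 kb, and classes are taken in order, with non-coding transcripts of coding genes first, which hold 68.7% of the strong peaks at coding starts. The intergenic bar stands at 34.7% for the first set, against 3.23% and 36.5% for the other sets.

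Without the order, 131 members had an lncRNA start within 1 kb, 51 a non-coding transcript of a coding gene, 39 a small RNA gene, 33 a pseudogene and 20 a TEC gene. Among the 122 members of the lncRNA class, 86 were assigned to a lincRNA, 34 to a processed transcript and 9 to an antisense gene, and a member may hold several. The transcripts at the 51 coding-gene starts were processed transcripts in 32 members, retained introns in 25 and targets of nonsense-mediated decay in 6. In 38 of these 51 members the gene was also the one with the nearest coding start. Examples are Chadl (chr15:81693480-81695327, 1960 bp from the coding start) and Dab2ip (chr2:35660632-35662677, 29317 bp), a gene for a Ras GTPase-activating protein.

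RefSeq gave a start to some of the members that GENCODE did not. A RefSeq mRNA start lay within 1 kb of 81 members, and for 23 of these a curated transcript gave it. Among the members with no GENCODE start, 36 had a RefSeq mRNA start, of which 6 were curated and 30 rested on predicted models alone. Taking the annotations together in order, 227 members had a GENCODE non-coding start, 9 held a copy of 4.5S RNA, 9 a RefSeq tRNA or rRNA gene, 68 a RefSeq mRNA or lncRNA start only and 5 a RefSeq pseudogene. Of the rest, 140 were CpG islands with no annotated start (28.4%) and 35 had neither a start nor a CpG island (7.10%). Distance to the nearest coding start had a median of 20053 bp. Between 1 and 2 kb lay 38 members, between 2 and 5 kb 52, between 5 and 10 kb 78, between 10 and 50 kb 197, between 50 and 100 kb 82 and beyond 100 kb 46.

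The members overlapped the other subunit of the enzyme nearly as often as strong promoter peaks did. A KMT9beta peak shared at least 1 bp with 462 of 493 members (93.7%, 91.2 to 95.7%), and over all KMT9alpha peaks the share was 76.0%. The same share was 98.2% (97.8 to 98.5%) for strong peaks at coding starts and 60.8% (60.0 to 61.6%) for weaker peaks away from them. An H4K12me1 peak overlapped 333 members (67.5%, 63.2 to 71.7%), and over all KMT9alpha peaks the share was 50.5%. It was 68.6% (67.5 to 69.7%) at strong coding starts and 40.1% (39.3 to 40.9%) at weaker peaks away. Where the overlap had to cover 50% of the KMT9alpha peak, the H4K12me1 shares were 41.2% in members, 41.3% at strong coding starts, 33.7% at weaker peaks away and 37.1% over all peaks, so the members stood much closer to the rest. With the same number of highest peaks from each list they were 44.8%, 46.8%, 26.3% and 33.6%. Both partners overlapped 327 members (66.3%, 62 to 70.5%), against 45.9% of all KMT9alpha peaks. Both sets of strong peaks were wider than the weaker peaks, with medians of 1621 bp in members, 1561 bp at strong coding starts and 648 bp in weaker peaks away, and the part of width in these shares was not tested.

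Where a KMT9beta peak overlapped, its score had a median of 269.6 in members, 256.7 in strong peaks at coding starts and 149 in weaker peaks away. For H4K12me1 the medians were 120.3, 114.5 and 110.8. The score ranges of members were wide, from 53.37 to 3100 for KMT9beta and from 50.02 to 3100 for H4K12me1. The sets overlap over most of these ranges.

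Partner shares were close in the members at annotated starts and the CpG islands without one, with intervals that overlap. A KMT9beta peak overlapped 216 of 227 members at GENCODE non-coding starts (95.2%, 91.5 to 97.6%) and 134 of 140 CpG islands with no annotated start (95.7%, 90.9 to 98.4%). For H4K12me1 the counts were 155 of 227 (68.3%, 61.8 to 74.3%) and 95 of 140 (67.9%, 59.4 to 75.5%). The 35 members with neither a start nor a CpG island had KMT9beta in 27 cases (77.1%, 59.9 to 89.6%), close to the 76.0% of all peaks, and H4K12me1 in 21 (60.0%, 42.1 to 76.1%). Among the smaller classes, H4K12me1 overlapped 15 of 16 members at small RNA starts, 16 of 27 at pseudogene starts, 8 of 11 at TEC starts and 3 of 9 with a 4.5S RNA copy. Its share was 67.5% over all members and 50.5% over all KMT9alpha peaks.

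**Figure D2:**
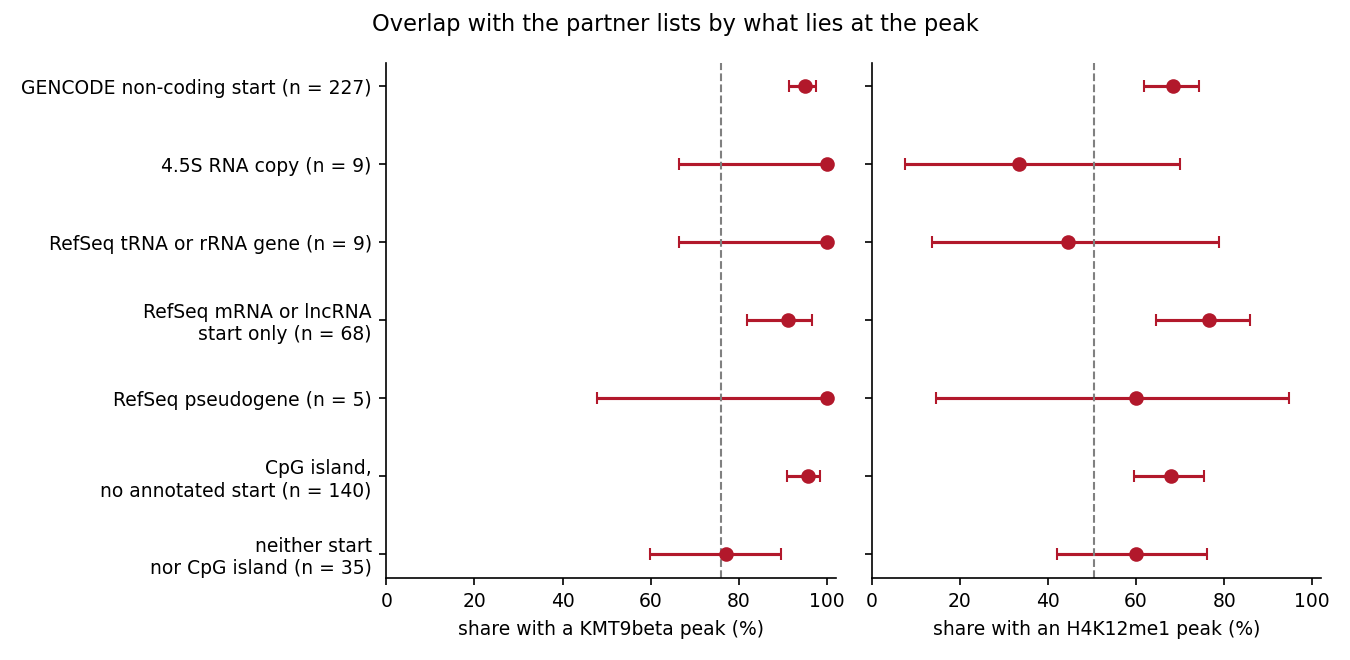
Share of members overlapped by a KMT9beta peak (left) or an H4K12me1 peak (right), by what lies at the peak (rows), with exact 95% intervals as bars; dashed lines give the share over all 25700 KMT9alpha peaks (76.0% and 50.5%). Members at GENCODE non-coding starts and CpG islands without annotated start stand at 95.2% and 95.7% on the left and at 68.3% and 67.9% on the right.

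Base composition set the members between strong promoter peaks and the weaker distal ones. The CpG ratio (observed over expected, 500 bp around the midpoint) had a median of 0.69 in members, 0.86 in strong peaks at coding starts and 0.25 in weaker peaks away. GC content had medians of 61.6%, 68.0% and 53.4%. A CpG island, taken as 200 bp with at least 50% GC and a CpG ratio of at least 0.6, was present in 86.4% of members, 99.5% of strong peaks at coding starts (99.4 to 99.7%) and 28.5% of weaker peaks away (27.8 to 29.3%). Over all KMT9alpha peaks the share was 58.1%. Any such stretch inside the peak counted, and the part of peak width in these shares was not tested. Members at the score of 3100 or more had a median CpG ratio of 0.83, against 0.53 in the members below it. Repeat-masked bases made up a median of 10.4% of a member, 7.67% of a strong peak at a coding start and 12.8% of a weaker peak away.

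**Figure D3:**
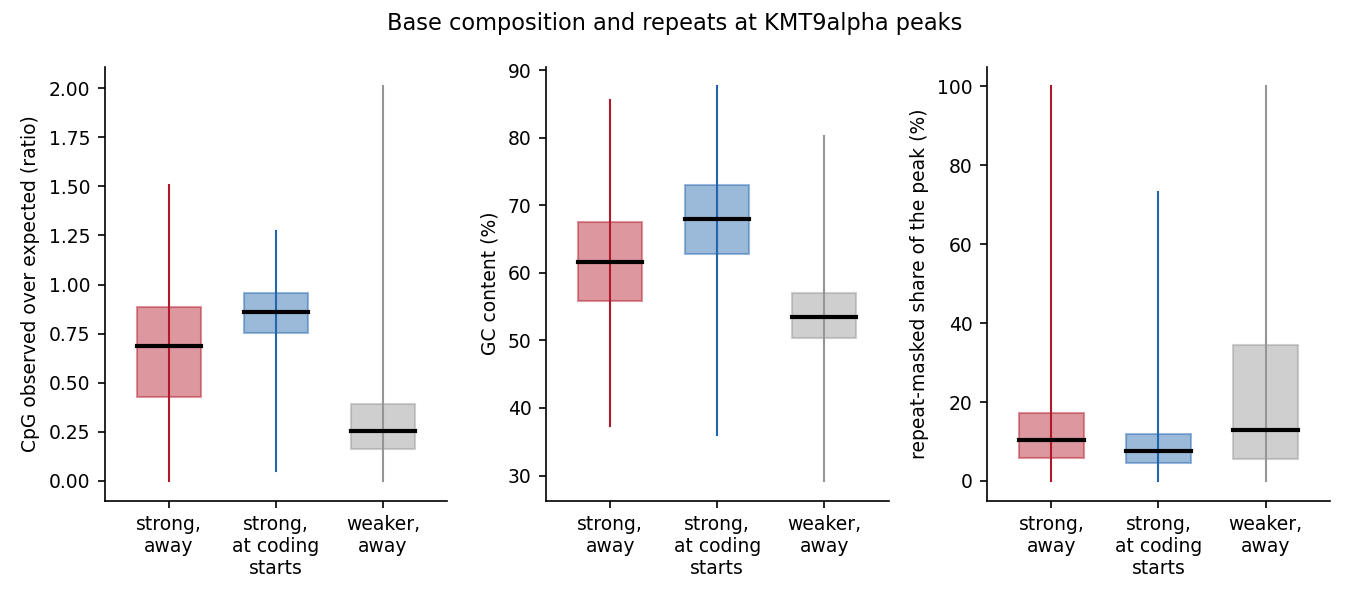
CpG ratio (left), GC content in % (middle) and repeat-masked share in % (right) of KMT9alpha peaks; boxes span the quartiles, black lines are medians and thin lines run to the lowest and highest peak. Median CpG ratio was 0.69 in strong peaks away from coding starts, 0.86 in strong peaks at coding starts and 0.25 in weaker peaks away.

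The 140 CpG islands with no annotated start were split between intergenic and genic sequence, with 28.6% of their midpoints inside a coding gene. In coding sequence lay 8.57% of the midpoints, against 5.27% in all members and 12.2% in all KMT9alpha peaks. A stricter island, 500 bp with at least 55% GC and a CpG ratio of at least 0.65, was present in 90 of the 140 (64.3%). That share was 67.3% over all members and 42.8% over all KMT9alpha peaks. Their median distance to a coding start was 15689 bp, and their median CpG ratio was 0.66. After the Nkain1 island came one 7803 bp from the start of Ccdc9 (score 3167.78, KMT9beta 137.18, no H4K12me1 peak). The repeated sequence in Filip1l and Cmss1 printed above was next (3159.59), and an island in an intron of the non-coding gene 5031425E22Rik, 15601 bp from the coding start of Kmt2e, followed at 3128.78 with KMT9beta 187.48 and H4K12me1 66.9. A further island lay 88129 bp from the start of Axin2, a negative regulator and target gene of Wnt signalling (chr11:109011310-109012332). It had 3100 for KMT9alpha, 1330.51 for KMT9beta and 3100 for H4K12me1. The nearest annotated start of any kind was 3659 bp away. The members farthest from any annotated start were an intergenic peak 144640 bp from the nearest start (chr4:56532551-56534395, 1760.39), and a peak in an intron of Arid1b, a subunit gene of SWI/SNF chromatin remodellers, 77303 bp away (3100). RefSeq enhancer features overlapped 12 members (2.43%, 1.26 to 4.21%), against 0.192% of strong peaks at coding starts, 0.610% of weaker peaks away and 0.447% of all KMT9alpha peaks.

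Among 19 genes that host small nucleolar RNAs (snoRNAs, guides of rRNA modification), 8 had a member at their start. These were Snhg6, Snhg8, Snhg15, Snhg16, Snhg17, Snhg20, Dancr and Epb41l4aos. A further 5, Snhg1, Snhg9, Snhg10, Gas5 and Zfas1, had a strong peak that also touched a coding start, 4 had a weaker peak and 2 had none. The 8 members scored 2305.88 at Snhg16 and 3100 at the other 7. All 8 overlapped KMT9beta, with scores between 81.58 (Snhg6) and 330.62 (Snhg8). H4K12me1 overlapped 5 of them, the highest being Dancr (173.79), and no H4K12me1 peak lay at Snhg16, Snhg20 or Epb41l4aos. For comparison, KMT9beta overlapped 93.7% and H4K12me1 67.5% of all members, and 76.0% and 50.5% of all KMT9alpha peaks.

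Of 8 abundant nuclear or imprinted lncRNAs, 3 had a member. Malat1, a long RNA of nuclear speckles, had 3100 for KMT9alpha, 479.77 for KMT9beta and 395.52 for H4K12me1. Neat1, the scaffold RNA of paraspeckles, lay under the second widest member, 7761 bp long, with 3100, 633.36 and 329.85 in the same order. Norad, a cytoplasmic RNA that binds Pumilio proteins, had 3100 and 143.1 with no H4K12me1 peak. Tug1 shared its strong peak with a coding start, Airn had a weaker peak (632.37), and no KMT9alpha peak lay at Kcnq1ot1, Meg3 or H19. Among 7 cancer-related lncRNAs, Dleu2, the host of miR-15a and miR-16-1, had a member (3100, 358.43 and 92.57), Hotairm1 a strong peak at a coding start, and Pvt1 (1136.41), Lncpint (1021.83) and Trp53cor1 (242.06) weaker peaks.

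miRNA loci made up most of the small RNA class. The 16 members of that class comprised 11 at miRNA genes, 3 at genes of the type misc_RNA, 1 at snoRNA genes and 1 at 5S rRNA genes. Mir192 and Mir194-2, a cluster whose miRNAs are abundant in intestinal epithelium, lay at a member with 2096.52 for KMT9alpha, 82.63 for KMT9beta and 301.09 for H4K12me1. Mir148a had 2320.88, 157.93 and 212.72, and Mir203, whose miRNA is known from the differentiation of stratified epithelia, had 3100, 568.41 and 279.96. Mirlet7i had 3100, 445.85 and 79.24, and Mir193a had 3100, 290.12 and 285.87. Where an H4K12me1 peak overlapped, its score ran between 55.25 at Terc, the RNA of telomerase, and 1908.79 at the tRNA cluster on chromosome 1. Rny1 had none. The member at Mir132 and Mir212, which was in another class, had 2413.26, 673.08 and 67.91. Counting members of every class, 15 miRNA genes with a RefSeq mature sequence had a start within 1 kb of 13 members.

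Of 10 miRNA host genes, 5 had a member and the other 5, among them Mir142hg and Mir9-3hg, had no KMT9alpha peak. Mir17hg, the host of the miR-17-92 cluster and a known Myc target, had 3100 for KMT9alpha, 659.51 for KMT9beta and 105.93 for H4K12me1. Mir22hg had 3100, 653.47 and 118.11, at a peak that also holds a non-coding start of Tlcd2. Mir670hg had 3103.91, 96.38 and 60.92, at a transcript start inside the gene and not at its 5' end. The gene spans chr2:94160636-94264918 on the minus strand, and the member chr2:94177983-94179139. Mir670 and Mir129-2 lie upstream of this member, so a Mir670hg transcript that starts there does not hold them. Mir155hg, whose miRNA acts in immune cells, had 2554.9 and 140.2 with no H4K12me1 peak, and Mir99ahg had 1679.12 with neither partner. The Mir99ahg member also lay inside its gene, but upstream of its miRNAs. Within the 5 hosts the partner scores thus ran from none at Mir99ahg to 659.51 for KMT9beta at Mir17hg.

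Of 9 genes for RNA polymerase III transcripts and catalytic RNAs, 3 had a member. Rn7sk, the RNA that holds the elongation factor P-TEFb inactive, had 3100 for KMT9alpha and 300.11 for KMT9beta, with no H4K12me1 peak. Terc had 3100, 127.99 and 55.25. Rny1, a Y RNA, had 2153.58 and neither partner. Rn7s1 and Rpph1 had strong peaks at coding starts, Rn7s2, Rmrp and Vaultrc5 weaker peaks, and Rny3 none. None of 17 Rnu genes, which encode spliceosomal and other small nuclear RNAs or snoRNAs, had a member, while 4 had a strong peak at a coding start and 8 a weaker one.

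RefSeq tRNA genes overlapped 15 members (3.04%, 1.71 to 4.97%), against 0.295% of strong peaks at coding starts, 0.228% of weaker peaks away and 0.284% of all KMT9alpha peaks. Of 386 tRNA genes on chromosomes 1 to 19, 22 lay in members, 25 in strong peaks at coding starts, 41 in weaker peaks away, 10 in weaker peaks at coding starts and 288 in no KMT9alpha peak. In all, 25.4% of tRNA genes (21.1 to 30.0%) overlapped a KMT9alpha peak. All 15 members with a tRNA gene had KMT9beta and a CpG island, 9 had H4K12me1, and 9 had no GENCODE start. Over all members the shares were 93.7% for KMT9beta, 86.4% for a CpG island and 67.5% for H4K12me1. Over all KMT9alpha peaks they were 76.0%, 58.1% and 50.5%. The tRNA genes lay a median of 447 bp from the peak midpoint, and 13 of the 22 held the exact B box motif. The cluster on chromosome 1, of which 4 genes are printed above, had 5 tRNA genes in a peak of 4545 bp (chr1:171077692-171082236), with 2251.83 for KMT9alpha, 1795.77 for KMT9beta and 1908.79 for H4K12me1. The other 14 members with a tRNA gene had KMT9beta scores between 94.79 and 623.04 and H4K12me1 scores of up to 141.87, such as n-TKctt17 (3100, 94.86 and no H4K12me1 peak) and n-TTcgt3 (3100, 220.85 and 80.69).

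The 4.5S RNA genes lay in the block with the most members. On chromosome 6, 15 members lay within 136 kb, and 14 of them stood on repeated sequence. A search of 600 kb around Rn4.5s found 12 copies of its 174 bp at 95% identity or more, all on the minus strand, 11 of them identical to it and 1 at 97.1%. Of the 12 copies, 11 lay inside 9 members, 1 in a weaker peak (446.13) and 0 outside KMT9alpha peaks. In the first stretch, 8 copies followed each other at spacings between 4308 and 4340 bp under 6 members, including the widest of all at 8631 bp (chr6:47657239-47665869). A run of 50000 unknown bases in the assembly then interrupts the array. The 15 members together covered 57.2 kb of the 136 kb block, unknown bases included. Strong peaks thus covered most of the known sequence, so these counts do not set the copies apart from the sequence between them. Of the 12 members in the array, 9 held a copy, and some without a copy also scored 3100. Rny1 lay at the end of the block.

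The 9 members with a copy had KMT9alpha scores between 2969.93 and 3155.76. All 9 overlapped KMT9beta, but they shared its peaks: 1 KMT9beta peak with a score of 957.16 covered 5 of them and 1 of 809.75 covered a pair. The member next to the assembly gap (chr6:47680225-47687008) had 3100 for KMT9alpha, 3100 for KMT9beta and 1040.7 for H4K12me1. H4K12me1 overlapped 3 of the 9. The median 32 bp word of these members occurred 14 to 17 times in the assembly, and the share of reads that the authors' mapping placed among such copies was not tested.

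**Figure D4:**
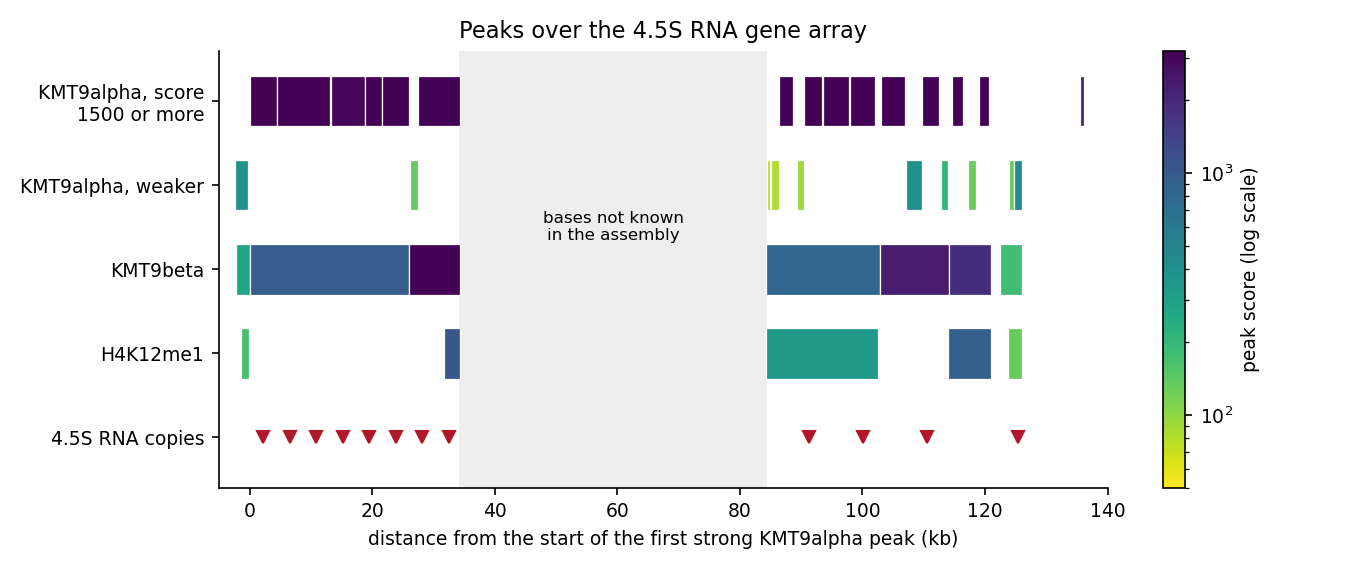
Peaks of the 3 lists and copies of 4.5S RNA (triangles) along the array on chromosome 6, by distance in kb from the start of the first strong KMT9alpha peak; colour gives the peak score on a log scale and grey marks 50 kb of unknown bases. The 8 copies left of the gap all lie under strong KMT9alpha peaks, and KMT9beta covers them with 2 broad peaks, of 957.16 and 3100. Strong KMT9alpha peaks also cover most of the sequence between these copies.

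Annotated ribosomal RNA sequence, or sequence shared with it, was found at several loci. A member on chromosome 17 (chr17:39842871-39848941) had 3100 in all 3 lists. GENCODE places the lincRNAs Gm26917, Gm42418 and AY036118 there, and RefSeq annotates Rn18s-rs5, a sequence related to 18S rRNA, at chr17:39846354-39848202. A member on chromosome 6 (chr6:3200572-3201840) without annotated start shared 590 of its 1245 words of 25 bp with that locus, all 590 within Rn18s-rs5, and had 2005.65 for KMT9alpha, 1684.36 for KMT9beta and 1215.63 for H4K12me1. Of 53 RefSeq 5S rRNA genes, 3 lay in 1 member on chromosome 8 (with 1702.5, 1553.44 and 1076.81), 35 in weaker peaks and 15 in none. Of 165 5S rRNA gene names in GENCODE, 4 started within 1 kb of that member. At the chromosome 17 locus, 100% of the 32 bp words around the midpoint occurred once in the assembly. Sequence that the assembly holds in fewer copies than the genome also counts as unique, and the copy number in these cells was not tested.

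Most of the 10 highest peaks of each partner list lay on members, and the share fell further down the lists. Both KMT9beta peaks at 3100 overlapped one, on the 4.5S array and at the chromosome 17 locus, and so did all 5 H4K12me1 peaks at 3100. Among the 10 highest peaks of each list, 8 overlapped a member in each, among the 50 highest 19 for KMT9beta and 17 for H4K12me1, and over the whole lists 0.537% and 0.649%. Among the 100 highest, members held 21 in each list. Weaker peaks away from coding starts held 38 for KMT9beta and 58 for H4K12me1, and strong peaks at coding starts 35 and 14. A partner peak that overlapped several sets was counted once, with members first and strong peaks at coding starts next. The counts of the sets other than members can therefore be too low. The other 4 H4K12me1 peaks at 3100 were the island near Axin2, a lncRNA start of RefSeq in Gm40237 near Tmem125 (chr4:118546813-118549108), a peak in the pseudogene Gm20590 on chromosome 13 (97.1% repeat-masked) and a peak at 2700054A10Rik on chromosome 17 (83.1% repeat-masked). The repeated CpG-rich sequence in the intron of Filip1l and Cmss1 printed above had 3159.59, 2059.09 and 1789.87. It resembles 28S rRNA by eye, which was not settled here: the 420 bp of 28S rRNA that RefSeq annotates share no 25 bp word with any KMT9alpha peak, and the rest of that RNA was not used here. Its place among the islands with no annotated start therefore holds for the annotation alone. Exons held 24 members. Those at Prr7 (3100, 938.67 and 266.2) and Clec11a (3100, 508.52 and 140.17) were the highest of that class. A member in an exon of Lars2, the gene of a mitochondrial leucyl-tRNA synthetase, was chosen after its values were seen and had 1648.53, 1191.52 and 1065.53. Of the 50 highest KMT9beta peaks, 15 of the 19 on members stood on repeated sequence, and of the H4K12me1 ones 13 of 17.

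Repeated sequence was defined as a 300 bp window in which under 50% of the 32 bp words occurred once in the assembly. By that measure 74 members (15%, 12 to 18.5%) were repeated, against 1.26% of strong peaks at coding starts and 19.2% of weaker peaks away. Over all KMT9alpha peaks the share was 11.5%, not far from that of members. Overlap was similar in both kinds of member: KMT9beta overlapped 90.5% of repeated and 94.3% of mostly unique members, and H4K12me1 68.9% and 67.3%. The scores of the overlapping peaks differed more, with KMT9beta medians of 625.9 in repeated and 247.04 in unique members, and H4K12me1 medians of 345.8 and 107.2. No member and no other KMT9alpha peak held a 32 bp word of the mitochondrial genome in that window. The number of copies moves with these scores, and its part in them was not tested.

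**Figure D5:**
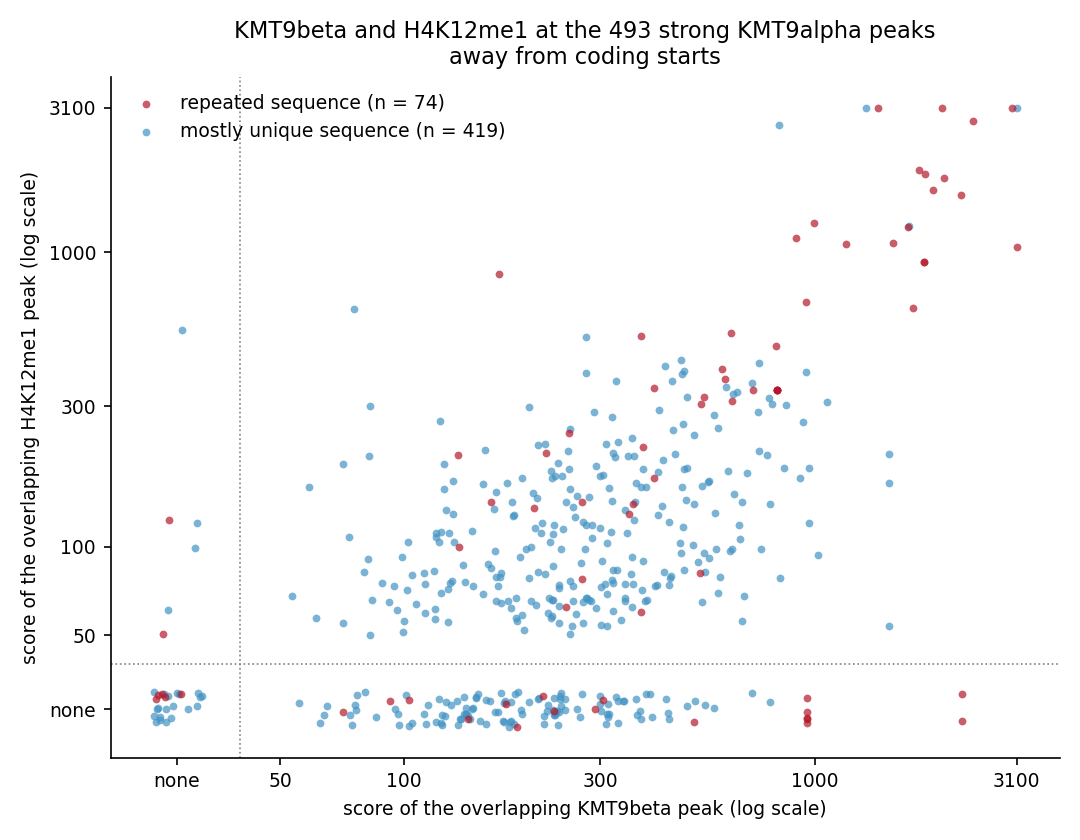
Score of the overlapping KMT9beta peak (horizontal) against that of the overlapping H4K12me1 peak (vertical) for each of the 493 members, log axes; members without an overlapping peak are spread at random at the position marked none, below 50. Members on repeated sequence (red, 74) make up most points with both scores above 1000, and mostly unique members (blue, 419) have medians of 247.04 and 107.2.

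The members were spread unevenly over chromosomes. They were 1.92% of all KMT9alpha peaks, with the highest shares on chromosome 12 (4.52%, 39 of 863) and chromosome 6 (3.71%, 41 of 1104), and the lowest on chromosomes 5 (0.839%) and 19 (0.937%). Chromosomes 5 and 19 held 3575 and 1708 KMT9alpha peaks in all. Of the strong peaks alone, members were 6.79%, with 13.4% on chromosome 12 and 11.4% on chromosome 6. By that measure chromosomes 7 (4.49%) and 10 (4.53%) were lowest, and chromosomes 5 and 19 stood at 5.69% and 5.46%. On chromosome 6, 17 of the 41 were repeated, and on chromosome 12, 18 of the 39. All 18 on chromosome 12 lay in its first 25 Mb, where 19 members stood within chr12:3234886-24252769, each with a CpG island. Of these 19, 17 had a non-coding start, 11 of them a pseudogene, and 14 had a score of 3100. KMT9beta overlapped 17 and H4K12me1 8. The shares over all members were 93.7% and 67.5%, and 86.4% held a CpG island. Over all KMT9alpha peaks the 3 shares were 76.0%, 50.5% and 58.1%. Repeat-masked bases made up 1.36 to 5.65% of these peaks, and the median number of times a 32 bp word of the peak occurs in the assembly ran between 1 and 8. The highest KMT9beta score at a pseudogene there was at Gm48667 (3100, 593.67 and 401.52), and a pair of pseudogene members on chromosome 8, Gm10060 and Gm21769, had KMT9beta scores of 705.89 and 603.89.

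With gaps of up to 100 kb joined, the members formed 415 blocks, of which 364 held 1 member, 40 held 2 and 11 held 3 or more. A block of 5 on chromosome 1 spanned 71.6 kb (chr1:86433782-86505369), and all 5 had KMT9beta and a CpG island. Over all members 93.7% had KMT9beta and 86.4% a CpG island, and over all KMT9alpha peaks 76.0% and 58.1%. A block of 4 on chromosome 8 spanned 21.6 kb near Nanos3 (chr8:84182886-84204511) and took in the lncRNA start Gm26887 and the TEC start Gm37352. Those 2 shared a KMT9beta peak of 1518.72, while the other 2 had 231.69 and 227.95. All 4 had H4K12me1, with scores between 53.75 and 206.91. H4K12me1 overlapped 67.5% of all members and 50.5% of all KMT9alpha peaks.

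Exact motif matches on either strand in the 300 bp around the midpoint were rare in all sets. AP-1 (TGANTCA) was found in 8.72% of members (6.38 to 11.6%), 2.87% of strong peaks at coding starts (2.48 to 3.29%) and 8.06% of weaker peaks away (7.61 to 8.53%). SP/KLF boxes (GGGGCGGGG) were found in 9.94% of members (7.44 to 12.9%), against 15.5% and 2.32%, and ETS sites (CCGGAAGT) in 3.45% (2.02 to 5.46%), against 6.20% and 0.742%. The E-box CACGTG was found in 10.1% of members (7.62 to 13.2%), against 6.78% and 5.33%. The TCF/LEF site CTTTGAT was found in 2.03%, against 0.945% and 3.02%, CRE (TGACGTCA) in 1.83%, against 1.74% and 0.375%, and the NF-Y box AGCCAAT in 2.84%, against 4.17% and 3.19%. YY1 was found in 1.22%, 1.60% and 0.0294%, NRF1 in 0.811%, 0.931% and 0.176%, ZNF143 in 0.609%, 1.30% and 0.103%, CTCF in 0.406%, 0.857% and 0.918%, and the tRNA B box in 0.406%, 0.251% and 0.286%, each set in the same order. A match is a description of the letters and not of binding.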

How the data were processed

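KMT9alpha, KMT9beta and H4K12me1 ChIP-seq (DNA bound to each protein or mark, sequenced after immunoprecipitation) was analysed from peak lists with 1 library per antibody. Per the labels' protocols, reads were mapped to mm10 with STAR, and the submitters' processing notes name Bowtie2. The peak names begin with MACS. For the caller, version, threshold and control were not given in the sources used here, and neither was the meaning of its score. The score of each peak is the authors' own, as deposited. The depth is unknown, and the input is not analysed here.

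Peaks on chromosomes 1 to 19 were compared with GENCODE vM21 and RefSeq GRCm38.p6. Overlap meant at least 1 bp. Uniqueness was the share of 32 bp words found once in the assembly, over 300 bp. Each share has a 95% interval by the exact Clopper-Pearson method, for the counting of peaks alone. Named members were the highest by score, in each class and by each partner, the widest, most repeat-masked and farthest ones, those next to the threshold, and those at listed non-coding genes. The members and lists were chosen with earlier results of these data known. Other thresholds, windows, overlaps and island definitions were tried. The scripts were tested on simulated data and ran with pysam 0.24.0, numba 0.67.0, matplotlib 3.10.9, scipy 1.17.1, pandas 2.3.3 and numpy 2.4.6 in Python 3.11.15. Some sequences are not reported here.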

Additional observations from a re-analysis of the deposited data

Results flagged for a closer look

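Peaks outside chromosomes 1 to 19 were in no comparison, but strong ones were present there. On X sequences 132 of 414 KMT9alpha peaks had a score of 1500 or more, of which 7 lay away from coding starts. On Y sequences 4 of 32 did, of which 1 lay away from coding starts. On unplaced sequences 2 of 81 did, both away from coding starts. They were noted because these chromosomes are outside every comparison here, and nothing was tested on them.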

How the results depend on the processing

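Of 113 alternative values over 22 settings, 84 stayed close to the reported value and 29 did not, where close means within 1.5 times for the number of members and within the 95% interval for the other results. A score threshold of 1000 gave 795 members and one of 3100 gave 232. With 1000, KMT9beta overlapped 90.9%, both partners 61.4%, non-coding starts 39.1% and CpG islands 77.6%. With 3100 the shares were 95.7% for KMT9beta, 72.8% for H4K12me1, 71.6% for both, 53.4% for non-coding starts, 97.4% for CpG islands and 11.6% for a coding start within 5 kb, and with 2000 the CpG island share was 91.6%. With the same number of highest peaks taken from each list, KMT9beta overlapped 79.1%, H4K12me1 44.8% and both 40.4%, against 54.1%, 33.6% and 26.9% of all KMT9alpha peaks. With partner peaks at or above their list's median score the shares were 88.6%, 47.9% and 45.4%, against 65.4% and 35.7% of all peaks for KMT9beta and H4K12me1. Requiring overlap of 50% of the peak gave 41.2% for H4K12me1, near the 37.1% of all peaks, and 40.2% for both, and requiring its midpoint gave 53.3% and 51.9%. Counting starts of every transcript of a coding gene as coding gave 39.95% at non-coding starts, and counting non-coding genes only gave 37.5%. The stricter CpG island of 500 bp gave 67.3%, against 42.8% of all KMT9alpha peaks. The median repeat-masked share was 6.67% over 300 bp around the midpoint. Coding starts within 5 kb were 11.4% with a 2 kb window and 27.8% when the midpoint had to lie in the window. Some settings move a share by definition. A 2 kb window leaves out the members between 1 and 2 kb, and a stricter rule for partner overlap can only lower a partner share. The cause of the other shifts was not tested. Leaving out members on repeated sequence, or those at RefSeq mRNA starts, was chosen after seeing the data.

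No paired analysis was possible because each antibody has 1 library and no second condition. With 1 library per antibody, no value has a replicate error. Scores reach a ceiling near 3100, so order among the highest peaks carries little. The lists differ in length. Neighbouring members share partner peaks, and repeated loci share sequence.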
